A study of Mus musculus with 46 samples.

Results

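The left hippocampus of pups reared with limited bedding (LB) was compared with that of pups reared under unpredictable postnatal stress (UPS), a pair of early adversity models in the mouse. Members were chosen by name alone: every library of the deposited expression table whose column name starts with LB or with UPS was used, and no control library entered. This gave 31 of the 46 libraries of the series, 16 LB libraries (9 female and 7 male pups) and 15 UPS libraries (7 female and 8 male pups). All pups were of the strain Balb/cByj and were at postnatal day 17 (P17), and all were anesthetized with chloral hydrate before dissection. LB litters lived from birth on a reduced amount of bedding and without nesting material. The UPS regimen is not described in the sources used here. Each library came from a single pup. The paper assigned whole litters, not single pups, to control or LB rearing, and its sequenced pups came from fewer litters than pups. The number of UPS litters is not given. Which pups were littermates cannot be read from the labels, so all pups entered the tests as separate animals. Any likeness within a litter makes the p-values given here too low.

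Values are TPM, a length-corrected measure of each gene's share of the transcripts in a library, scaled to the same total in every library. TPM keeps no read depth, so the counting error behind a single value is unknown. The female UPS library 1 is UPS by its title and column name but carries LB in its early life stress label, and it was kept as UPS. Between 21151 and 24708 genes were above 0 TPM in an LB library, and between 21300 and 23933 in a UPS library. One library stood apart from the other 30. On the second principal component of all genes tested, which held 13.8% of the variance, the female UPS library 2 lay at 57.0, whereas the others lay between -11.2 and 6.07. A second library, the female LB library 9, lay among the male libraries. Its column header also carries an earlier name of the form used for males, without the F of female columns. The paper counts as many LB males as LB females, which the labels used here do not give. This library lay at -0.54 on the difference between female and male libraries over autosomal genes. Males lay there between -0.73 and -0.18 and the other females between 0.31 and 0.84. Genes of the X and Y chromosomes were left out of this difference, and the sex of the pup was not tested. Of 12655 autosomal genes, 4900 differed between female and male libraries at an adjusted p under 0.05 (limma, a linear model with variances shared across genes), so sex and any set in which libraries were handled cannot be told apart. Where leaving out either library moved a value clearly, the value without it is given too. The dissection carried hippocampal markers in both groups: summed over 15 dentate granule neuron genes, TPM was 339 to 499 in LB and 378 to 581 in UPS libraries.

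Several systems that are known to answer early adversity can be read from such data. Glucocorticoids released under stress bind the glucocorticoid receptor, which enters the nucleus and switches on genes such as Tsc22d3, Fkbp5 and Sgk1. Cells keep their cholesterol level by a feedback loop: when sterols are low, the transcription factor SREBP2 is freed from the endoplasmic reticulum and raises the genes of cholesterol synthesis and uptake, and Insig1 encodes the protein that holds SREBP2 back when sterols are plentiful. In the hippocampus at this age, oligodendrocytes are still forming myelin, a membrane rich in cholesterol.

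Few genes separated LB from UPS, and those that did changed little. At a mean TPM of at least 3 in LB or UPS, 13161 of 52636 genes were tested on log2(TPM + 1) with sex as a covariate in limma, with p-values adjusted by the Benjamini-Hochberg method over all of them. Differences are LB minus UPS, so a positive value is higher in LB. Of these genes 5 passed an adjusted p of 0.05, which is 0.038% of the genes tested: Insig1 and Id3 were higher in LB, and Rin2, Thrsp and Lrrc8c were lower. At an unadjusted p under 0.05, 836 genes (6.35%) were higher and 882 (6.7%) lower in LB, and the median difference over all genes was 0.0049. TPM is a share of the library, and with mitochondrial genes taken out and the rest rescaled 522 genes were higher and 1429 lower, which is 26.8% higher against 48.7% with them. The scatter of all genes shows these 5 above the rest, with absolute differences between 0.21 and 0.45 on the log2 scale.

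**Figure D1:**
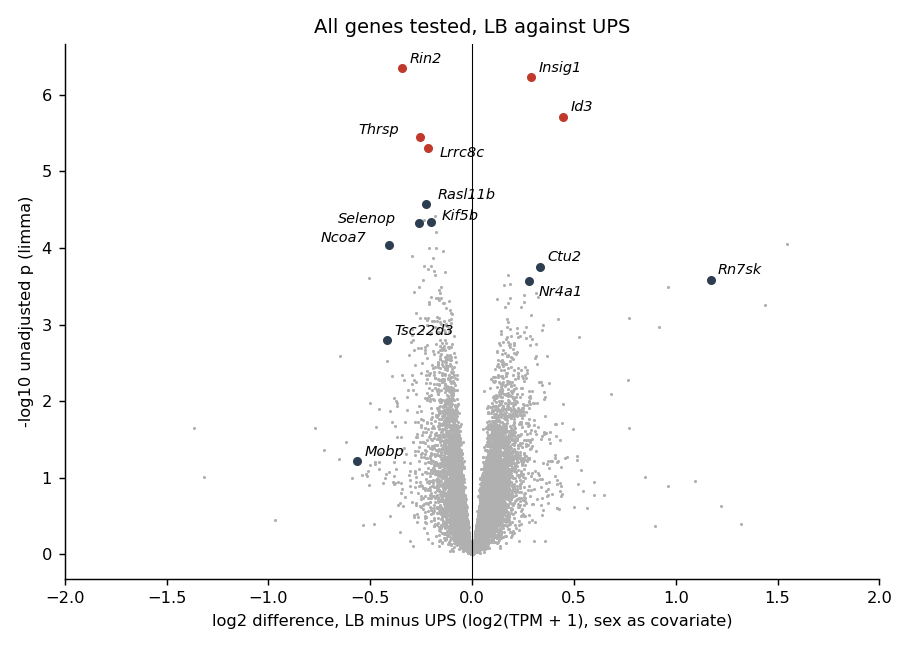
Each point is one of the 13161 genes tested, with the log2 difference between LB and UPS on the x axis and -log10 of the unadjusted limma p on the y axis; 2 genes with differences beyond the x axis are not shown. The 5 red points passed an adjusted p of 0.05, and dark points are other genes named in the text, none of which passed.

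Insig1 (chr5:28071363-28078662, plus strand, GRCm38) was the called gene with the least overlap between the groups. It had 42.4, 48.4 and 61.5 TPM in LB libraries (lowest, median and highest) and 36.3, 40.5 and 43.6 TPM in UPS libraries. Of the LB libraries 14 of 16 lay above every UPS library, and in females the groups did not overlap, which held for 8 genes of all those tested (0.0608%). The log2 difference was 0.29 (SE 0.047, adjusted p = 0.0039 from limma), with 0.39 within females and 0.18 within males. A difference between the sexes was not shown, as the interaction had an adjusted p of 1.00 in limma. Insig2, its paralog with the same role, had a log2 difference of -0.04 (adjusted p = 0.77), and Scap, the escort protein that Insig1 binds, had 0.06 (adjusted p = 0.55).

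The start of the Insig1 gene is shown because it is the sterol gene that passed the test. The window is chr5:28071162-28071461 (plus strand, GRCm38.p6, RefSeq), 300 bases around the start of transcription, with the letters CACGTG, an E-box to which SREBP and other helix-loop-helix factors can bind, in capitals.
Insig1 promoter: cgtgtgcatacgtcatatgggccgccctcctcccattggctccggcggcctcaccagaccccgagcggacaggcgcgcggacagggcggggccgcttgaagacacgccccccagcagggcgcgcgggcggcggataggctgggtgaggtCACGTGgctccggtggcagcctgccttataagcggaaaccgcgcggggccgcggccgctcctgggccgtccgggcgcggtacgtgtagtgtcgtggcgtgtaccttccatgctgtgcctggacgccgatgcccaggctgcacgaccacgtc
CACGTG starts 101 bases before the start of transcription. On either strand, 7.15% of all 32851 such windows hold it, as do the windows of 11.9% of the tested genes with a window. None of the 5 called genes held TCACNCCAC, the letters of a sterol regulatory element, which stand in 1.24% of all windows.

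Id3 (chromosome 4, 136143497 to 136145755, plus strand, GRCm38) encodes a helix-loop-helix protein that cannot bind DNA itself and blocks the factors it pairs with, and in the brain it is expressed in astrocytes and vessels. LB libraries had 49.3, 63.0 and 102 TPM, against 37.7, 49.2 and 74.5 TPM in UPS libraries. The groups overlapped over both sexes but not within females, where LB lay at 49.3 to 94.4 TPM and UPS at 37.7 to 49.2 TPM. Id3 was among 8 genes of all those tested (0.0608%) without overlap in females. The log2 difference was 0.45 (SE 0.077, adjusted p = 0.0085 from limma), in 15 of 16 LB libraries against the UPS mean of their sex. Its relatives did not pass: Id1 had a log2 difference of 0.18, Id2 of -0.16 and Id4 of -0.13, with adjusted p between 0.34 and 0.50 in limma.

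Rin2 (chromosome 2, 145675215 to 145887616, plus strand) encodes an exchange factor for Rab GTPases of early endosomes. LB libraries had 14.95, 17.3 and 22.3 TPM, against 18.2, 21.9 and 30.1 TPM in UPS libraries. Of the LB libraries 10 of 16 lay below every UPS library, and 7 of 15 UPS libraries lay above every LB library. The log2 difference was -0.34 (SE 0.054, adjusted p = 0.0039 from limma), and all 16 LB libraries lay below the UPS mean of their sex.

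Thrsp (chromosome 7, 97412938 to 97417730, minus strand) encodes a nuclear protein that is induced by thyroid hormone in liver and is tied to the making of fatty acids. LB libraries had 27.2, 33.0 and 36.5 TPM, against 30.96, 39.5 and 45.3 TPM in UPS libraries, and 11 of 15 UPS libraries lay above every LB library. The log2 difference was -0.26 (SE 0.046, adjusted p = 0.012 from limma), in 16 of 16 LB libraries. Lrrc8c (chromosome 5, 105519388 to 105613018, plus strand) encodes a subunit of the anion channel that opens when cells swell. LB libraries had 15.6, 17.3 and 20.7 TPM, against 16.6, 19.5 and 25.0 TPM in UPS libraries, and the groups overlapped in both sexes. Its log2 difference was -0.21 (SE 0.039, adjusted p = 0.013 from limma), in 16 of 16 LB libraries.

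**Figure D2:**
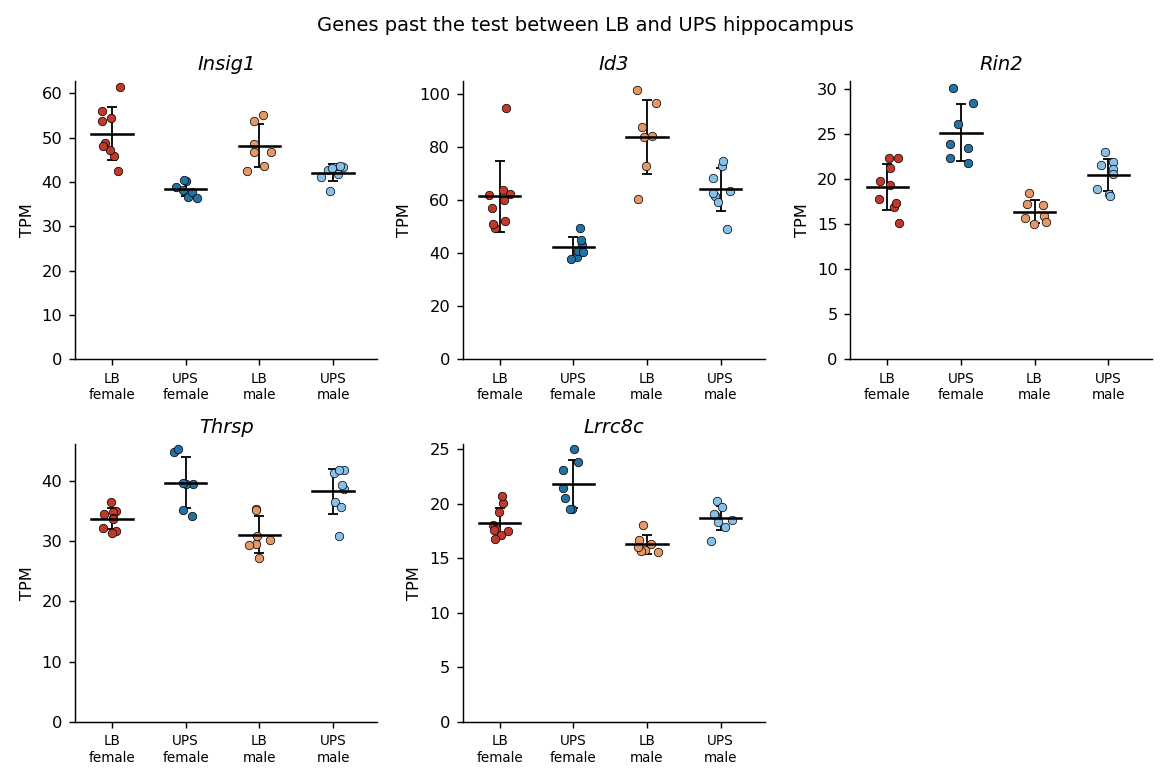
TPM of each library for the 5 genes that passed the test, by rearing and sex; points are libraries, lines are means and bars are 1 SD (LB female n = 9, UPS female n = 7, LB male n = 7, UPS male n = 8). Insig1 and Id3 sit higher in LB and the other 3 genes lower, in females and in males.

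Each of the 5 genes remained past the threshold with any 1 of the 31 libraries left out, with adjusted p of at most 0.038. The calls depend on the label of the female UPS library 1: counted as LB, it left 0 genes past the threshold in limma (1735 at an unadjusted p under 0.05), with adjusted p between 0.067 and 0.076 for the 5 genes. In each of the 5 genes this library lay beyond all LB libraries on the side of UPS, for example at 38.9 TPM for Insig1 and 28.5 TPM for Rin2, although the genes were chosen by a test that counts it as UPS.

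The genes next in order did not pass with all 31 libraries. Among those lower in LB, Rasl11b, a small GTPase of the Ras family, had 70.5, 78.0 and 94.2 TPM in LB and 81.3, 90.2 and 104 TPM in UPS libraries (log2 difference -0.22, adjusted p = 0.059 from limma). Kif5b, a heavy chain of the motor kinesin that carries cargo along axons, had 86.4, 105 and 130 TPM in LB and 101, 123 and 155 TPM in UPS libraries, a log2 difference of -0.20 (adjusted p = 0.063). Selenop, the secreted protein that delivers selenium to the brain, had 279, 353 and 452 TPM in LB and 317, 421 and 538 TPM in UPS libraries, a log2 difference of -0.26 (adjusted p = 0.063). These ranges overlapped widely, although 10 of 16 LB libraries lay below every UPS library for Rasl11b. Ncoa7, a coactivator of nuclear receptors, had the largest difference of this group, -0.41 (47.4, 59.3 and 92.2 TPM in LB, 55.8, 80.1 and 118 TPM in UPS, adjusted p = 0.088). The others, with differences from -0.29 to -0.14 and adjusted p from 0.074 to 0.099, were Wapl, which releases cohesin from chromatin, Prag1, a pseudokinase, Prickle2, a protein of planar cell polarity, Cyp2j9, a cytochrome P450, and the mitochondrial gene mt-Nd2.

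Among genes higher in LB, Nr4a1, a nuclear receptor induced within minutes of neuronal activity, had 41.3, 53.9 and 73.7 TPM in LB and 35.2, 43.9 and 56.4 TPM in UPS libraries (log2 difference 0.28, adjusted p = 0.12 from limma). Rn7sk, the small nuclear RNA that holds the elongation factor P-TEFb inactive, had the largest difference, 1.17 (SE 0.285, adjusted p = 0.12), with medians of 49.1 TPM in LB and 27.98 TPM in UPS. It is not polyadenylated, and these libraries were made from messenger RNA. Transcripts of ribosomal RNA loci, which are not polyadenylated either, took 0.832%, 2.33% and 4.58% of TPM in LB and 0.164%, 1.01% and 5.77% in UPS libraries (permutation p = 0.042, adjusted 0.062), and their part in this difference was not tested. Ctu2, which modifies transfer RNA, had 0.34, Arv1, a protein of sterol transport in the endoplasmic reticulum, had 0.31, and Chchd10, a protein of the mitochondrial intermembrane space, had 0.26. Tmed3, Fndc10, Ndufa2 and Mettl21a had differences between 0.16 and 0.19. None of these passed, with adjusted p between 0.11 and 0.13.

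Glucocorticoid-induced genes were shifted towards lower values in LB. Of 23 tested genes of the list of glucocorticoid receptors and targets, 0 passed the adjusted threshold in limma, 10 were lower in LB at an unadjusted p under 0.05 and 0 were higher, beside 6.7% and 6.35% of all genes. The median log2 difference over the list was -0.17 (all genes 0.0049), and 20 of 23 had a negative sign, against 6278 of all 13161 genes. Members of a list can rise and fall together in a library, so the signs within a list, here and below, are not independent. Tsc22d3, which encodes the anti-inflammatory protein GILZ, had 58.3, 76.4 and 94.2 TPM in LB and 77.6, 90.8 and 333 TPM in UPS libraries. In males the groups did not overlap, at 61.3 to 77.4 TPM in LB and 82.9 to 91.4 TPM in UPS, which held for 9 genes of all those tested (0.0684%), Klf15 among them. Its log2 difference was -0.42 (SE 0.121, adjusted p = 0.17 from limma).

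Much of the size of this shift came with one library. The female UPS library 2 had the highest value of all 31 libraries in 17 of the 23 genes, whereas it was highest in 19.7% of all genes tested. It held 333 TPM of Tsc22d3, where the other UPS libraries had at most 119 TPM. It held 180 TPM of Sgk1, a kinase that regulates ion channels, where the other UPS libraries had at most 78.8 TPM, and 109 TPM of Fkbp5, a co-chaperone of the glucocorticoid receptor, against at most 54.4 TPM. Without this library the list median was -0.08, while 10 genes were still lower at an unadjusted p under 0.05 and 1 was higher, beside 8.77% and 7.06% of all genes in that fit. Tsc22d3 then passed the threshold, with a log2 difference of -0.29 (adjusted p = 0.026 from limma). With all libraries the list median was -0.24 in females and -0.08 in males, and in females without this library it was -0.13.

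Members differed in how far their values rested on that library. Errfi1, an inhibitor of the EGF receptor, had 28.3, 33.9 and 40.2 TPM in LB and 33.5, 36.9 and 60.9 TPM in UPS libraries (log2 difference -0.23, and -0.19 without the female UPS library 2, adjusted p = 0.11 and 0.051). Klf9, a zinc finger factor, had 162, 180 and 226 TPM in LB and 182, 198 and 305 TPM in UPS libraries (log2 difference -0.17, and -0.13 without that library, adjusted p = 0.15 and 0.096). For Klf9, 9 of 16 LB libraries lay below every UPS library. Klf15, a related factor, had 13.6, 16.6 and 21.3 TPM in LB and 16.4, 20.1 and 47.9 TPM in UPS libraries (log2 difference -0.31, and -0.22 without that library). Sgk1 had 52.8, 62.3 and 87.4 TPM in LB and 56.2, 68.4 and 180 TPM in UPS libraries, and its log2 difference of -0.21 became -0.11 without the library (adjusted p = 0.33 and 0.24). Fkbp5 had 39.0, 43.8 and 55.3 TPM in LB and 40.9, 45.8 and 109 TPM in UPS libraries, with -0.17 and -0.09. Mt2, a metallothionein, had -0.38 with and -0.23 without that library, which held 745 TPM where the other UPS libraries had at most 223 TPM. Nfkbia, an inhibitor of NF-kB, had -0.21 with it and -0.14 without, Ddit4, an inhibitor of mTOR, had -0.19 and -0.13, and Sult1a1, a sulfotransferase, had -0.37 and -0.34, none past the adjusted threshold. The receptor gene itself, Nr3c1, had 46.4, 63.3 and 72.9 TPM in LB and 45.8, 60.9 and 82.3 TPM in UPS libraries, a log2 difference of -0.04 (SE 0.063, adjusted p = 0.79).

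The inverted repeat of the glucocorticoid response element was searched on both strands. It stood in the promoter windows of 2 of the 17 genes of the list that have a window in the RefSeq table, Sgk1 and Mt1. Of the tested genes with a window 0.376% held it, and of all windows 0.475%. One Sgk1 window, chr10:21993640-21993939 (plus strand, GRCm38.p6, RefSeq), is shown as the example of the class, with the element in capitals, starting 188 bases before that start of transcription.
Sgk1 promoter: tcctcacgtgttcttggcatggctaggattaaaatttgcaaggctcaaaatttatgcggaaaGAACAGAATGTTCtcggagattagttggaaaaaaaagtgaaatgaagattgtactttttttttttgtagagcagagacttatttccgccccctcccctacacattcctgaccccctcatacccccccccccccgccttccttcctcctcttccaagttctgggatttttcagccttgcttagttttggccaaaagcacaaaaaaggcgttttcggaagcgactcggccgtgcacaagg
Each end of the element is the reverse complement of the other, around 3 central bases. Sgk1 has 6 windows in the table, of which this is one.

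The list of cholesterol and fatty acid synthesis ran the other way. Of 34 tested genes, Insig1 passed. At an unadjusted p under 0.05, 8 were higher in LB and 0 were lower, beside 6.35% and 6.7% of all genes. A positive sign was found in 32 of the 34, against 6883 of all 13161 genes, and the median log2 difference was 0.11. Stard4, a carrier that moves sterols between membranes, had 16.5, 22.3 and 27.5 TPM in LB and 8.13, 19.7 and 22.4 TPM in UPS libraries, and 8 of 16 LB libraries lay above every UPS library. Its log2 difference was 0.23 (SE 0.094, adjusted p = 0.30 from limma). Srebf2, which encodes SREBP2, had 96.1, 115 and 151 TPM in LB and 61.0, 112 and 135 TPM in UPS libraries, a log2 difference of 0.16 (adjusted p = 0.27). The groups overlapped in both sexes for both genes. The mevalonate pathway kinases Mvk and Pmvk had 0.17 and 0.13 (0.11 and 0.10 without the female UPS library 2), and Srebf1, which encodes the other SREBP factor, had 0.14, with adjusted p between 0.26 and 0.34.

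The female UPS library 2 was at the opposite end here. It had the lowest value of all 31 libraries in 30 of the 34 genes, whereas it was lowest in 25.8% of all genes tested. It held 8.13 TPM of Stard4 and 61.0 TPM of Srebf2, where every other UPS library had at least 16.5 TPM and 93.0 TPM. Without it the list median was 0.04, and Stard4 had 0.14 and Srebf2 0.10. In that fit 8 genes were higher and 1 lower at an unadjusted p under 0.05, beside 7.06% and 8.77% of all genes. Insig1 was not among the genes in which this library stood out: it had 38.2 TPM, the median of the UPS females, and the difference of Insig1 was 0.29 with and without it. With all libraries the list median was 0.14 in females and 0.03 in males, and in females without this library it was 0.04. The letters CCAAT, to which the factor NF-Y binds beside SREBP, stood in the windows of 20 of the 24 genes of the list that have one, against 42.9% of the tested genes with a window and 37.4% of all windows. They also stood in the windows of 11 of the 17 genes of the glucocorticoid list that have one. TCACNCCAC stood in those of 1 of the 24 genes of the cholesterol and fatty acid list, against 1.37% of the tested genes with a window.

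**Figure D3:**
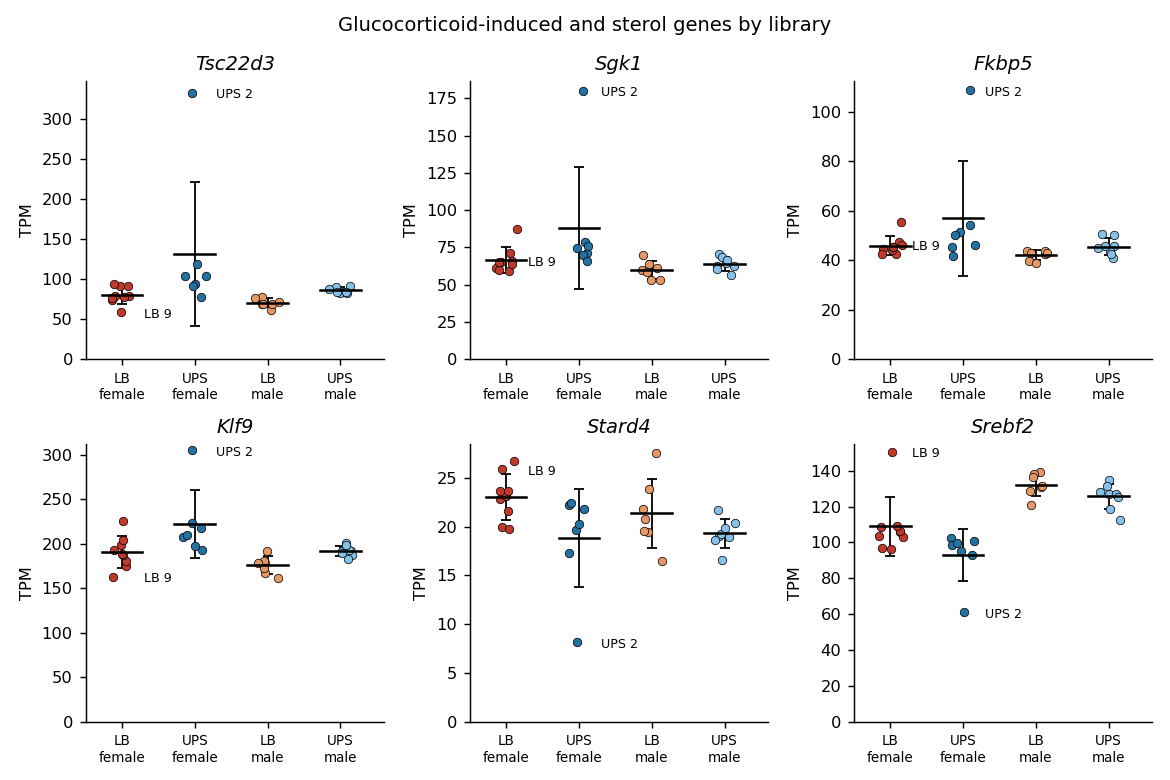
TPM of each library by rearing and sex for 4 glucocorticoid-induced genes and 2 sterol genes; points are libraries, lines are means and bars are 1 SD (LB female n = 9, UPS female n = 7, LB male n = 7, UPS male n = 8). The female UPS library 2 (UPS 2) is the highest point for Tsc22d3, Sgk1, Fkbp5 and Klf9 and the lowest for Stard4 and Srebf2, while LB males and UPS males do not overlap for Tsc22d3; the female LB library 9 (LB 9) is marked too.

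**Figure D4:**
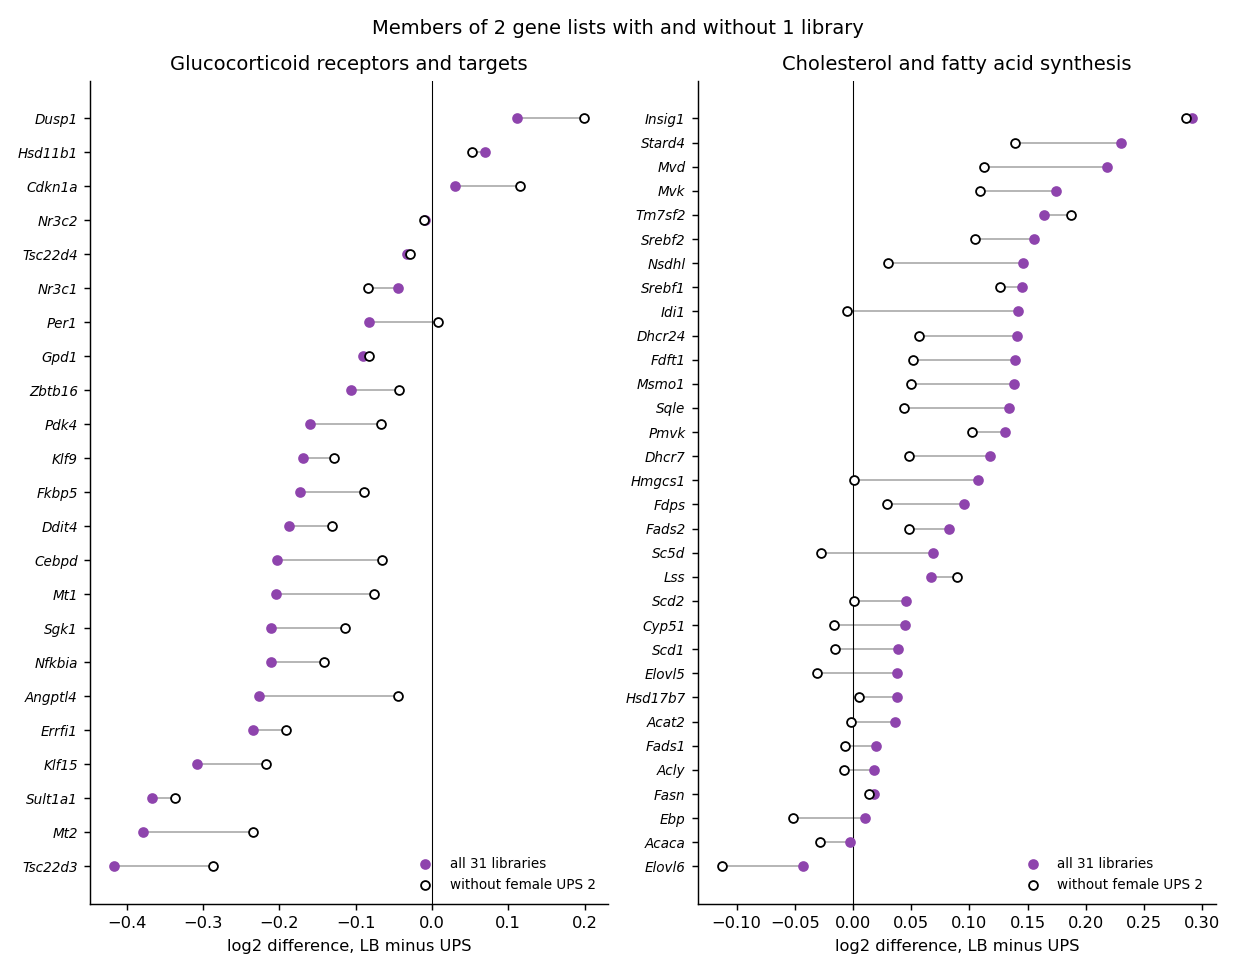
Log2 difference between LB and UPS for the tested genes of the glucocorticoid list (23 genes) and for 32 of the 34 of the cholesterol and fatty acid list, with all 31 libraries (filled) and without the female UPS library 2 (open). The median over all tested members moves from -0.17 to -0.08 for the glucocorticoid list and from 0.11 to 0.04 for the cholesterol list without that library, whereas Insig1 is at 0.29 in both.

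Myelin genes had a lower median in LB than in UPS, with wide spread between pups. Of 42 tested genes of mature oligodendrocytes and myelin, 0 passed in limma, 2 were lower at an unadjusted p under 0.05 and 0 were higher, below the 6.7% of all genes, while 36 of 42 had a negative sign and the median was -0.19. Summed TPM of the list was 1552, 2694 and 4218 in LB and 1986, 3399 and 4790 in UPS libraries, so the groups overlapped over most of their range. Mobp, a protein of compact myelin, had 51.7, 236 and 559 TPM in LB and 138, 435 and 651 TPM in UPS libraries, a log2 difference of -0.56 with an SE of 0.290 (adjusted p = 0.40). Mbp, myelin basic protein, had 188, 463 and 797 TPM in LB and 329, 607 and 1025 TPM in UPS libraries, a difference of -0.31 (adjusted p = 0.46). In bulk tissue, fewer oligodendrocytes and less RNA per cell cannot be told apart. Mal had -0.59, Mog -0.35, Mag -0.33 and Cnp -0.20, and the factor Myrf, which switches on myelin genes, had -0.19 (adjusted p = 0.38). Dock10, an activator of small GTPases, had the smallest p of the list, with a difference of -0.22.

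The female LB library 9 had the lowest value of all 31 libraries in 22 of these 42 genes, and without it the median was -0.14. The median was -0.10 in females and -0.26 in males. Without the female UPS library 2 it was -0.20 over both sexes and -0.15 within females. In that fit 4 genes were lower at an unadjusted p under 0.05, beside 8.77% of all genes. Markers of the earlier stages had medians closer to 0, at -0.06 for newly formed cells and 0.04 for progenitors, which were -0.08 and -0.02 without the female UPS library 2, the lowest library in 16 of the 25 progenitor genes. Tns3, a gene of newly formed oligodendrocytes, had -0.16, and Lrrn1, of progenitors, had -0.20 (adjusted p = 0.15 and 0.16). Pdgfra, the receptor that marks progenitors, had medians of 60.6 TPM in LB and 60.5 TPM in UPS (log2 difference -0.01), Sox10 had -0.01, and Olig2 had 0.11 with and 0.0032 without the female UPS library 2, which held 12.9 TPM of Olig2 where every other UPS library had at least 29.6 TPM. The sign of these 3 genes turned in some of the other fits.

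Transcripts encoded by mitochondrial DNA had a smaller median share in LB libraries, a difference that did not pass after adjustment. The share of mitochondrial genes in all TPM was 9.52%, 10.9% and 13.6% in LB and 10.1%, 12.6% and 14.1% in UPS libraries (2-sided permutation test of the means, p = 0.026, adjusted over 3 library measures 0.062). Of the 13 mitochondrial genes of the respiratory chain, 7 were lower and 1 higher at an unadjusted p under 0.05, and 0 passed. Of all genes, 6.7% were lower and 6.35% higher. The smallest p was that of mt-Nd2, a subunit of complex I, with 9096, 10889 and 13193 TPM in LB and 10004, 12613 and 14070 TPM in UPS libraries (log2 difference -0.18, adjusted p = 0.088 from limma). The other complex I gene mt-Nd5 had -0.18, and mt-Co1 and mt-Cytb, of complexes IV and III, had -0.13 each (adjusted p between 0.13 and 0.15). Of 91 tested nuclear genes of the same chain, 12 were higher in LB at an unadjusted p under 0.05 and 0 lower (0 passed in limma), with a median of 0.03, led by Ndufa2 with 0.16, Atp5d with 0.17 and Ndufa11 with 0.15. With mitochondrial genes taken out, the nuclear list held 9 higher and 1 lower, beside 522 higher and 1429 lower over all genes in that fit.

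Neuronal and activity genes had differences in both directions, none past the adjusted threshold. Beside the counts of each list, 6.35% of all genes were higher in LB and 6.7% lower at an unadjusted p under 0.05. Of 34 interneuron genes 6 were higher in LB and 0 lower at an unadjusted p under 0.05 (0 passed in limma), with a median of 0.04. Slc32a1, the transporter that loads GABA into vesicles, had 56.7, 75.5 and 86.6 TPM in LB and 43.3, 65.6 and 94.0 TPM in UPS libraries, a log2 difference of 0.17 (adjusted p = 0.19). Sst, somatostatin, had 420, 500 and 654 TPM in LB and 284, 461 and 612 TPM in UPS libraries, also 0.17 (adjusted p = 0.21), and Pnoc, the precursor of nociceptin, had 0.29. For all 3 genes the female UPS library 2 was the lowest UPS library, and without it the list median was 0.02 and Pnoc had 0.20. Among 24 neuropeptide and processing genes, 6 were higher and 3 lower at an unadjusted p under 0.05. Vgf, a secreted peptide precursor induced by neurotrophins, had 82.8, 187 and 309 TPM in LB and 72.3, 131 and 280 TPM in UPS libraries (log2 difference 0.44, adjusted p = 0.30), whereas Chgb and Scg3, granins of dense core vesicles, had negative differences, Chgb of -0.19 (518, 680 and 798 TPM in LB, 631, 763 and 827 TPM in UPS) and Scg3 of -0.11, neither past the threshold. The list median was 0.11, and 0.06 without the female UPS library 2. Of 30 immediate early genes 5 were higher and 3 lower. With mitochondrial genes taken out, the interneuron list held 3 higher and 1 lower. The neuropeptide list then held 5 higher and 6 lower, and the immediate early list 4 and 3. Over all genes in that fit, 522 were higher and 1429 lower. Fosb, unlike Nr4a1 above and Btg2 with 0.19, was lower in LB, at 2.79, 4.08 and 5.63 TPM, against 3.95, 5.52 and 6.57 TPM in UPS (log2 difference -0.29, adjusted p = 0.15).

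All 18 tested genes of the circadian clock had a negative sign, against 6278 of all 13161 genes. At an unadjusted p under 0.05, 4 of them were lower, beside 6.7% of all genes lower and 6.35% higher. The median was -0.07, with -0.11 in females and -0.03 in males. The female UPS library 2 was the highest library in 8 of the 18 genes, against 19.7% of all genes tested. Without it the median was -0.05 and 3 genes were lower, beside 8.77% of all genes. Clock had 35.0, 45.6 and 56.1 TPM in LB and 43.0, 50.5 and 62.2 TPM in UPS libraries, a log2 difference of -0.20 (adjusted p = 0.13 from limma). Bhlhe41 had -0.21 and Nr1d2, a repressor of the loop, had -0.16. For Nr1d2 the female UPS library 2 held 96.9 TPM, where the other UPS libraries had at most 71.5 TPM. All 15 dentate granule genes were negative too, with a median of -0.06, and Prox1, the factor that defines granule neurons, had -0.17 (adjusted p = 0.35), and Calb1, calbindin, -0.13. Of 49 genes of actin remodeling 11 were lower and 2 higher, led by Rock2, a kinase of the actin cytoskeleton, with -0.16. Of 26 genes of axon growth 5 were higher and 0 lower, led by Stmn3 with 0.13. Without the female LB library 9, 1 was higher and 0 lower, beside 635 and 756 of all 13161 genes in that fit. The female UPS library 2 was the lowest library in 15 of the 26 axon growth genes. Without it 1 of these was higher and 2 lower, beside 7.06% and 8.77% of all genes. With mitochondrial genes taken out, 1 axon growth gene was higher and 0 lower, and the actin list held 1 higher and 13 lower. Over all genes in that fit, 522 were higher and 1429 lower. Of 18 interferon and MHC class I genes 2 were higher, led by Tap1 with 0.31 (medians of 2.95 TPM in LB and 2.43 TPM in UPS). None of these genes passed the adjusted threshold.

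Markers of other cell types and of tissue next to the hippocampus overlapped between the groups. Of the astrocyte list Id3 passed, and besides it Sox9, a factor of astrocytes, had 26.3, 31.2 and 33.96 TPM in LB and 21.6, 26.5 and 43.4 TPM in UPS libraries (log2 difference 0.18, adjusted p = 0.25), while the connexin Gjb6 had -0.31. The median of the 23 astrocyte genes was -0.0038, and -0.04 without the female UPS library 2. Microglia genes had a median of 0.02, and their summed TPM was 1061 in the female UPS library 2, above the LB maximum of 808 TPM and the UPS median of 765 TPM. Endothelial genes had a median of 0.04 and of -0.0067 without that library, which was the lowest in 12 of the 25 genes. Among them, Flt1, a VEGF receptor, had -0.22 (25.8, 28.7 and 35.1 TPM in LB, 27.6, 33.0 and 54.9 TPM in UPS) and Cldn5, a tight junction protein, had 0.18 (55.8, 72.5 and 100 TPM in LB, 49.0, 69.1 and 84.5 TPM in UPS). Summed TPM of choroid plexus genes was 25.4, 109 and 2668 in LB and 40.2, 50.7 and 1467 in UPS libraries (lowest, median and highest). The median log2 difference of this list was 0.17 over 7 tested genes, and 0.03 without the female LB library 9. Summed TPM of thalamus genes was 149 to 191 in LB and 151 to 195 in UPS. That of blood genes was 278 to 615 in LB and 273 to 823 in UPS, the highest in the female UPS library 2. The part of these cells in the differences above was not tested.

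**Figure D5:**
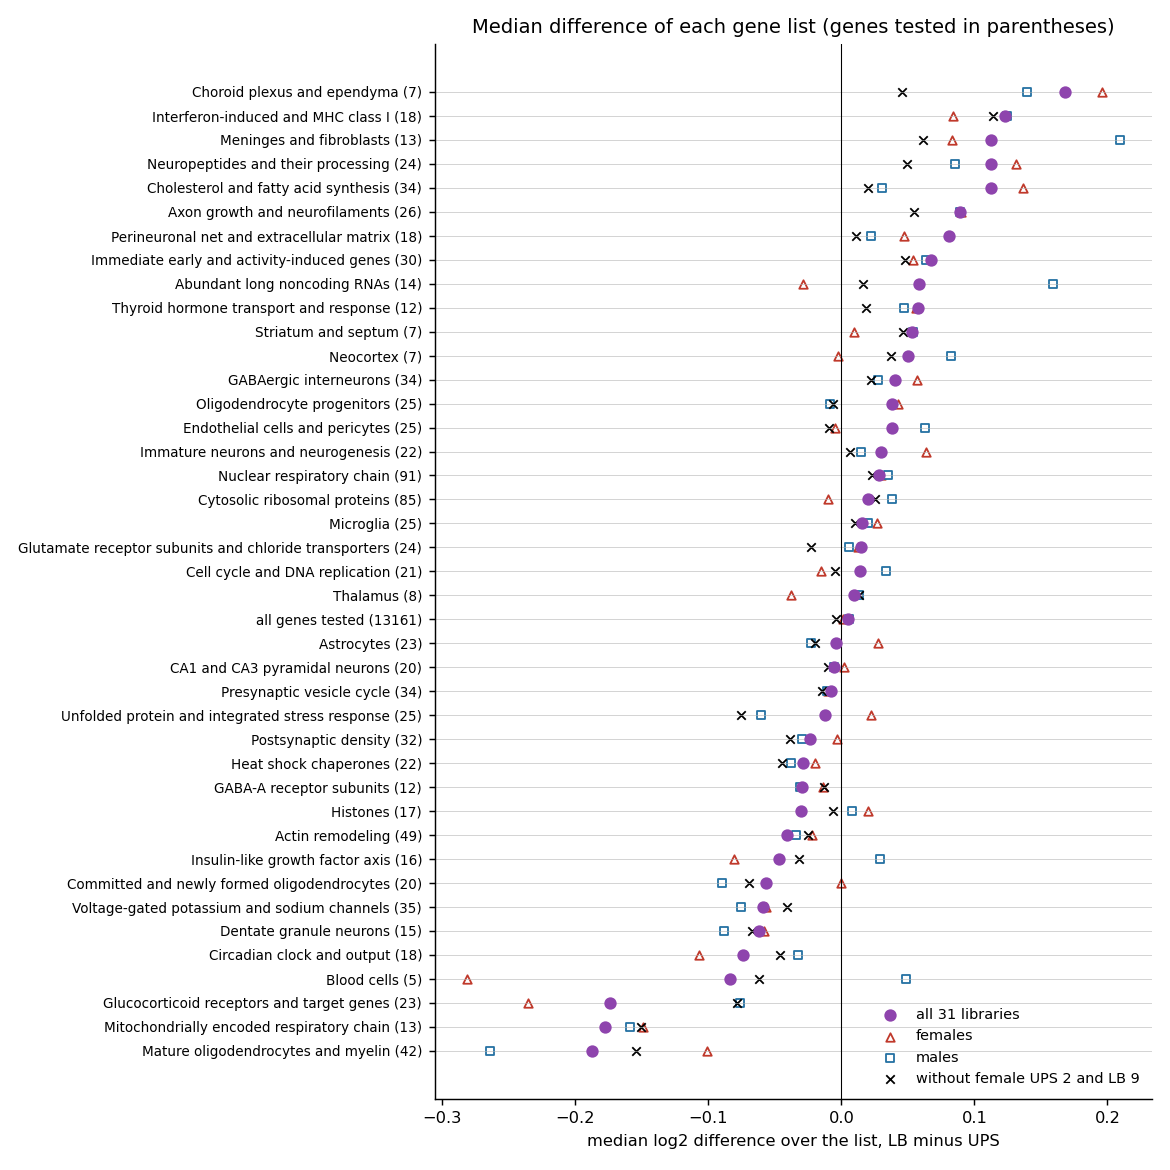
Median log2 difference between LB and UPS over the tested genes of each of 40 lists and of all genes tested, with all 31 libraries (filled circles), within females (triangles), within males (squares) and without the female UPS library 2 and the female LB library 9 (crosses). Myelin, mitochondrial and glucocorticoid genes have the lowest medians, and crosses of the glucocorticoid and cholesterol lists lie closer to 0 than the circles.

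Within one sex almost nothing passed. In females 0 genes passed in limma (828 at an unadjusted p under 0.05, 2.93% of the genes tested higher and 3.37% lower in LB), and in males 2 of 13161 genes (0.0152%) did, Mir22, which was higher in LB, and Zfp366, a zinc finger corepressor, which was lower. At an unadjusted p under 0.05, the males had 4.38% of the genes tested higher in LB and 3.99% lower. Mir22 had 25.7, 31.03 and 34.4 TPM in LB males and 19.2, 21.4 and 24.5 TPM in UPS males, without overlap (log2 difference 0.47, SE 0.073, adjusted p = 0.046 from limma). Of all genes tested, 9 (0.0684%) had no overlap in males, Mir22 and Zfp366 among them, and these 2 were named by a test on the same values. In females the ranges of Mir22 were 16.2 to 29.001 TPM in LB and 15.5 to 30.2 TPM in UPS, with a difference of 0.18. The host transcript Mir22hg, in which Mir22 lies, had a difference of 0.02 in males. The value counts fragments over the 95 bases of the hairpin in a messenger RNA library and is no measure of the mature microRNA, whose arms are given here with the seed (bases 2 to 8) in capitals (chr11:75463734-75463755 and chr11:75463772-75463793, plus strand, GRCm38.p6, RefSeq).
mmu-miR-22-5p: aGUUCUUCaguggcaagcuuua
mmu-miR-22-3p: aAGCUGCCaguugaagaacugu
Zfp366 had 5.23, 6.11 and 6.59 TPM in LB males and 7.67, 8.59 and 9.80 TPM in UPS males, also without overlap (log2 difference -0.45, SE 0.062, adjusted p = 0.027 from limma). Both calls depend on single males: over 15 fits that each left out 1 male, the Mir22 call was lost in 11 (without LB 1, 2, 3, 5 or 8 or UPS 3, 4, 5, 6, 7 or 8) and the Zfp366 call in 8 (without LB 1, 2, 3, 5 or 8 or UPS 4, 7 or 8), with 0 to 4 genes past the threshold. In females the ranges were 5.23 to 9.96 TPM in LB and 0.721 to 11.2 TPM in UPS, where the lowest value belonged to the female UPS library 2.

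A difference of LB from UPS that depends on sex was not found for any gene: 0 genes passed the interaction test in limma (302 at an unadjusted p under 0.05, 1.5% of the genes tested with a more positive difference in males and 0.798% with a more negative one). The smallest p-values were those of Il4ra, the receptor of interleukin-4, with a log2 difference of -0.22 in females and 0.56 in males, and of Fnip2 (-0.31 in females, -0.04 in males), Csnk1a1 (0.25 and -0.07), Gm5527 (-0.47 and 0.02) and Rps6ka3 (-0.21 and 0.20), each with an adjusted p of 1.00.

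Leaving out the female UPS library 2 raised the number of genes past the threshold to 22 (4 higher and 18 lower in LB, 0.167% of the genes tested), the largest effect of any single library. Besides the 5 genes above, these held Rasl11b, Kif5b, Wapl, Mir22, Tsc22d3, Sox9, which was higher in LB (log2 difference 0.23, adjusted p = 0.037), and Zfp366 (-0.38, adjusted p = 0.020). They also held Sesn1, a stress-induced sestrin (-0.20), Dio2, the enzyme that activates thyroid hormone (-0.18), Cpt2, of mitochondrial fatty acid oxidation (-0.26), Top1, a topoisomerase (-0.15), Trove2, Rilpl1 and Paqr8 with differences from -0.20 to -0.15, and 3 genes without a descriptive name. For Cpt2, Top1 and Dio2 this library was the lowest of all UPS libraries, at 2.54, 65.3 and 33.9 TPM, while LB medians of 5.15, 93.9 and 55.7 TPM lay below the UPS medians of 6.28, 99.9 and 61.1 TPM.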

How the data were processed

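Total RNA of the left hippocampus was made into messenger RNA libraries and sequenced by the authors, who aligned reads to mm10 with HISAT2 and deposited TPM values per gene from StringTie. Tool versions: not given in the sources used here, as for the annotation release. Further tables hold the authors' DESeq2 fold changes and p-values and were left out. The members and gene lists were chosen with earlier results of these data known.

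The 31 LB and UPS columns were read by name, and sex was taken from the labels. Genes whose mean TPM reached 3 in LB or UPS were tested as log2(TPM + 1), so differences of low genes are understated, with limma 3.58.1 in R 4.3.3, a variance trend and sex as a covariate, adjusted by the Benjamini-Hochberg method at 0.05. The study fitted counts with DESeq2, and counts were not used here. Within-sex and interaction fits used the same model. Library shares were compared with 100000 permutations. The model was tested on simulated data. Named genes were the 12 smallest p-values in each direction, predicted genes left out, up to 3 leading members of those of the 40 lists described, 5 interaction genes and a few oligodendrocyte genes. Other members of the glucocorticoid and sterol lists, the Id and Insig relatives and the genes past the threshold in males or without the female UPS library 2 were named after their values were seen. Gene positions come from GENCODE (GRCm38) and sequences from RefSeq (GRCm38.p6). Mitochondrial genes that overlap a neighbour are uncertain and were not named. Alternatives were other pseudocounts, filters, scalings, models, weights and labels, and each library left out in turn. Fits without the female UPS library 2 and with the female LB library 9 left out or with the males were chosen after the data were seen. The values of 2 members of the cholesterol and fatty acid list are not reported here.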

Additional observations from a re-analysis of the deposited data

Results flagged for a closer look

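Some values lay far from the rest of their own group of the same rearing and sex, by a gap past the critical value of Dixon's test. It was run 128 times, on 32 genes in 4 groups, and marked 24 values. Chance marks about 1 in 20 independent runs. These runs share libraries and are not independent, so the 24 values do not measure an excess over chance.

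The female UPS library 2 gave 12 of these values: Mir22 at 30.2 TPM (group median 17.9), Errfi1 at 60.9 TPM (group median 44.1), Klf9 at 305 TPM (group median 210), Tsc22d3 at 333 TPM (group median 104), Klf15 at 47.9 TPM (group median 20.0), Sgk1 at 180 TPM (group median 74.3), Fkbp5 at 109 TPM (group median 50.2), Stard4 at 8.13 TPM (group median 20.3), Srebf2 at 61.0 TPM (group median 98.4), Sox9 at 43.4 TPM (group median 26.2), Zfp366 at 0.721 TPM (group median 8.2), Flt1 at 54.9 TPM (group median 37.0). Its glucocorticoid-induced genes were high and its sterol genes Stard4 and Srebf2 low.

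The female LB library 9 gave 5: Id3 at 94.4 TPM (group median 59.9), mt-Nd2 at 9096 TPM (group median 11807), Srebf2 at 151 TPM (group median 106), Slc32a1 at 82.3 TPM (group median 63.1), Sst at 589 TPM (group median 449). The other values came from 6 libraries. In the male UPS library 8, Insig1 was 37.9 TPM (group median 43.0). In the male LB library 3, Lrrc8c was 18.1 TPM (group median 16.05). In the male UPS library 6, Errfi1 was 33.5 TPM (group median 36.7). In the female LB library 3, Sgk1 was 87.4 TPM (group median 64.9) and Fkbp5 was 55.3 TPM (group median 45.4). In the female UPS library 1, Chgb was 680 TPM (group median 791). In the male LB library 1, Flt1 was 26.2 TPM (group median 28.6).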

How the results depend on the processing

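Of 18 settings beside leaving out single libraries, 15 kept all 5 genes past the threshold, and 0 turned the sign of any of them. The count of 5 became 16 (3 higher and 13 lower in LB) with mitochondrial genes taken out, 117 (27 and 90) with library weights, 9 (2 and 7) with LB library 9 among the males, 66 (18 and 48) when the female UPS library 2 was also left out, and 19 (4 and 15) with both libraries left out, the last 2 settings chosen after the data were seen. It became 1 with rearing alone in the model, where Insig1 remained and Rin2, Id3, Thrsp and Lrrc8c had adjusted p of 0.17, 0.81, 0.079 and 0.69. It became 0 with the female UPS library 1 counted as LB (1735 at an unadjusted p under 0.05). With sample number within sex as a replicate block, limma called 0 genes (1320 at an unadjusted p under 0.05), with adjusted p of 0.12 to 0.28 for the 5 genes, and as a random effect the block left the 5 calls. Same-numbered LB and UPS libraries of one sex were little alike, with correlations of their deviations between -0.07 and 0.17 over 14 pairs. Of these pairs 2 were over 0.1 and 2 were highest with their own number. Whether a number marks a shared litter or handling across the sexes of one rearing was not tested.

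With 1 library left out, the count lay between 5 and 22 over both sexes, between 0 and 1 in females and between 0 and 4 in males. Leaving out LB_F 3 gave 11 genes, LB_M 5 and LB_F 8 gave 10 each, LB_F 7 and UPS_F 5 gave 8 each, UPS_M 7 gave 12 and UPS_F 2 gave 22. In males Mir22 lost the threshold in 11 and Zfp366 in 8 of 15 fits without 1 male, and in 0 of the 3 other settings run within males. Over all 18, adjusted p was 0.017 to 0.17 for Mir22 and 0.0093 to 0.10 for Zfp366. The cause of these moves was not tested. Differences near 0 turned sign: Sox10 to 0.0064 with the female UPS library 1 counted as LB and within -0.037 to 0.012 with single libraries left out, Pdgfra to 0.0012 without both libraries and within -0.029 to 0.0091 with single ones left out, and Olig2 to -0.0011 without the female UPS library 2 and with LB library 9 among the males. TPM keeps no depth, so no counting error could be given.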

Other observations

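None of the genes in the following groups passed in limma. Their counts at an unadjusted p under 0.05 stand beside 6.35% of all genes higher in LB and 6.7% lower. Of 35 voltage-gated potassium and sodium channel genes, 2 were higher and 6 lower in LB, with a median log2 difference of -0.06. Of 85 genes of cytosolic ribosomal proteins, 8 were higher and 4 lower, with a median of 0.02. Of 25 genes of the unfolded protein and integrated stress response, 1 was higher and 4 were lower, with a median of -0.01. Without the female UPS library 2, the lowest library in 16 of them, 0 were higher and 6 lower, with a median of -0.06. In that fit 7.06% of all genes were higher and 8.77% lower. Of 13 genes of meninges and fibroblasts, 1 was higher and 0 were lower, with a median of 0.11 that was 0.04 without the female UPS library 2. Of 34 genes of the presynaptic vesicle cycle, 2 were higher and 4 lower, with a median of -0.01.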
